A study of Homo sapiens with 61 samples.

Results

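SLC7A11, the light subunit of the cystine and glutamate exchanger, and 9 further plasma membrane amino acid transporter genes were followed in human neurons exposed to the microtubule poison vincristine. The 9 others were SLC3A2, SLC7A5, SLC7A1, SLC7A3, SLC1A4, SLC1A5, SLC38A1, SLC38A2 and SLC6A9. The 10 genes were a list of symbols matched to the deposited gene identifiers through GENCODE 29. This list and the other gene lists below were chosen with earlier results of these data known. Their counts beside the share of all genes are therefore descriptions, with no test of a list. All 10 genes passed the filter on low counts, among 18235 genes tested in the first experiment and 20759 in the second. SLC7A11 had been chosen by its measured log2 fold change in wild-type neurons, as the strongest riser there. Its change in wild type, and every comparison of it with wild type, is therefore given as a description with no test.

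The neurons were made from WTC11, an induced pluripotent stem cell line in wide use, and were driven to a cortical-like fate by the transcription factor NGN2, which in the first experiment stood behind a doxycycline-controlled cassette. Experiment 1 held 4 lines: wild type (WT), DLK KO (loss of MAP3K12), LZK KO (loss of MAP3K13) and DLK LZK double KO, with 4 libraries each for untreated and vincristine. Experiment 2 used neurons that also carried the CRISPR interference machinery and received by lentivirus a scrambled Control gRNA, an ATF2 gRNA or a JUN gRNA, with 5 libraries per group except 4 for ATF2 gRNA vincristine. Untreated cells had received the DMSO vehicle, and treated cells 5 nM vincristine for 16 h from day 14. The labels give 1 name per knockout genotype and do not state how many clones stand behind it, nor how many guides each gRNA group received. Nothing in them says that replicates came from separate cultures, so p-values measure only the spread between these libraries. Levels are in CPM, a gene's counts scaled to the total of its library. Changes are log2 fold changes from edgeR's quasi-likelihood test, called at an adjusted p under 0.05.

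Vincristine binds tubulin and blocks microtubule growth, and DLK and LZK are kinases that pass axonal damage on through JNK to transcription factors such as JUN and ATF2. Amino acid transporters of the SLC families feed protein synthesis, glutathione synthesis and neurotransmitter pools. SLC7A11 imports cystine in exchange for glutamate, and SLC3A2 is the heavy chain that carries SLC7A11 or SLC7A5 to the cell surface. Several of these genes are known targets of ATF4, the main transcription factor of the integrated stress response, and SLC7A11 is also a known target of the antioxidant factor NRF2. In brain, SLC7A11 is best known from astrocytes.

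RefSeq start-site windows (GRCh38.p14, from 250 bases before to 50 bases after an annotated start) were at hand for 8 of the 10 genes, 14 windows in all, but for neither SLC7A11 nor SLC7A3. The sequences below are shown because several of the 10 genes are known targets of ATF4. The study also perturbed ATF2 and JUN, whose dimers bind AP-1 and CRE elements. Among the windows that gave the printed sequences, only that of SLC7A1 is at the outer 5′ end of the gene's span. The others are at annotated starts within the span. The stress response core TGATGNAA was searched on both strands and stood in windows of 5 of the 8 genes. It was in 3.62% of all 35116 windows. Here and for the elements below, the members are counted as genes and the background as windows. A gene had up to 3 windows, so these figures are not on the same scale. The capitals mark the match and the letters are those of the gene's own strand, 5′ to 3′; in SLC3A2 and SLC1A4 they spell its reverse complement.
SLC3A2: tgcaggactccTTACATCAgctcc
SLC7A1: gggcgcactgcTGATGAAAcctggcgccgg
SLC1A4: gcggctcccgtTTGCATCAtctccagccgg
SLC1A5: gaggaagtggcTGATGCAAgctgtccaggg
SLC38A1: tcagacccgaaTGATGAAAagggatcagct
These stretches lie at chr11:62881725-62881748 (plus strand), chr13:29595663-29595692 (minus), chr2:64989381-64989410 (plus), chr19:46784893-46784922 (minus) and chr12:46266502-46266531 (minus).
The AP-1 element TGANTCA was present in 2 of the 8 genes, against 7.71% of all windows, and is shown as the element to which JUN dimers bind.
SLC3A2, AP-1: acgagggtgggTGACTCAgcgtcctcctt
SLC38A1, AP-1: ttgaaatagagTGACTCAccgggaggggc
They lie at chr11:62881651-62881679 and chr12:46266556-46266584. No window of the 8 genes held the CRE element TGACGTCA, present in 1.85% of all windows. The antioxidant response core TGACNNNGC was in windows of 4 of them (SLC3A2, SLC7A5, SLC7A1 and SLC1A5), against 13.3% of all windows. In SLC3A2 that core overlaps the AP-1 match. A match is a string of letters and says nothing of binding.

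Library totals were 8.41 to 14.6 M counts in experiment 1 and 38.9 to 88.4 M in experiment 2, so low levels in experiment 1 rest on few counts. Targeted genes followed the labels: MAP3K12 was at 28.9% of the untreated WT mean in DLK KO and 21.6% in the double KO, and MAP3K13 was at 32.2% in LZK KO and 29.9% in the double KO. ATF2 was at 0.409% of Control gRNA under ATF2 gRNA and JUN at 3.24% under JUN gRNA. JUN was also at 23.7% under ATF2 gRNA, and ATF2 at 50.4% of WT in DLK KO. Untreated JUN was lowest relative to WT with both kinases lost (28.3%), then with DLK lost (39.5%), and stood at 82.9% with LZK lost. Under ATF2 gRNA, untreated MAP3K12 was at 74.1% of Control gRNA. All 10 neuron markers listed were at a mean of at least 1 CPM in both experiments. Of the glial lists, 0 of 5 microglia markers, 1 of 6 astrocyte markers (SOX9) and 2 of 5 oligodendrocyte markers reached that level, with GFAP, AQP4, MOG and SOX10 below it. Summed levels of several lists moved with the groups. The oligodendrocyte sum was 21.77 to 25.23 CPM in untreated and 26.09 to 29.32 CPM in treated WT, and 11.8 to 16.6 and 21.61 to 24.92 CPM in Control gRNA. A list of 5 genes of neural progenitors and dividing cells, NES among them, went from 733.8 to 775.2 CPM up to 922.8 to 1951 CPM in WT. It rose without overlap also in DLK KO (208.9 to 271.9, then 489.7 to 602.5 CPM) and LZK KO (511.8 to 669.2, then 974.3 to 1168 CPM), and was 119.9 to 129.5 CPM across the double KO. In Control gRNA it was 1310 to 1400 CPM and then 2431 to 2527 CPM, in JUN gRNA 957.3 to 1080 and then 1656 to 1762 CPM, and across ATF2 gRNA 696.1 to 814.7 CPM. Of the 5 genes, 2 were called higher in WT (30.2% of all genes), 1 in DLK KO (6.53%) and 2 in LZK KO (3.88%). In Control gRNA 3 were called higher (35.3%), in JUN gRNA 1 (15.9%) and in ATF2 gRNA 1 (6.1%). The sum can therefore move with few of the 5 genes. Of 5 pluripotency markers, POU5F1, NANOG and TDGF1 were below 1 CPM. The sum of that list was 2.809 to 3.345 CPM in untreated and 1.652 to 2.026 CPM in treated WT, against 52.94 to 62.16 CPM across the double KO. It was 6.804 to 13.48 CPM across Control gRNA and 30.75 to 40.15 CPM across ATF2 gRNA. The neuron sum differed by line. It was 6895 to 7817 CPM across DLK KO, 8927 to 9494 across WT, 9696 to 11300 across LZK KO and 10170 to 10910 across the double KO. In Control gRNA it went from 10000 to 10400 CPM down to 8373 to 8881 CPM. In JUN gRNA it went from 9599 to 10130 CPM down to 8444 to 8692 CPM, and across ATF2 gRNA it was 7304 to 8126 CPM. The oligodendrocyte sum was 36.81 to 48.76 CPM across LZK KO and 13.07 to 16.74 CPM across the double KO. The part of these lists in the results that follow was not tested. In bulk RNA, fewer cells expressing a gene and less RNA per cell cannot be told apart.

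Vincristine raised most of the transporters in neurons with both kinases intact, and fewer of them passed the test where DLK or LZK was missing. In WT, 7 of the 9 transporters other than SLC7A11 rose and none fell, where 30.2% of all genes were called; SLC7A3 and SLC38A2 did not pass. In Control gRNA neurons all 10 rose, against 35.3% of all genes. DLK KO neurons raised 5 of 10 (6.53% of all genes) and LZK KO neurons 3 of 10 (3.88%). The double KO raised 0 of 10 (0.0658% of all genes were called by edgeR). There, 0 of the 10 had an unadjusted p under 0.05, and DESeq2 also called 0. With the double KO libraries fitted alone edgeR called 1 of the 10, SLC38A2, and edgeR calls over all genes went from 12 to 1028. ATF2 gRNA neurons raised 7 of 10 (6.1%) and JUN gRNA neurons 5 of 10 (15.9%). The median change was 1.06 over the 9 others in WT. Over the 10 genes it was 0.32 for DLK KO, 0.27 for LZK KO, -0.01 for the double KO, 0.63 for Control gRNA, 0.41 for ATF2 gRNA and 0.24 for JUN gRNA. The median of all genes lay between -0.02 and 0.03 in each of these 7 comparisons. With 1 library left out, the DLK KO count went to 3 at its lowest (without untreated replicate 1 or 2, or vincristine replicate 1, 2 or 4), and the LZK KO count to 6 without untreated replicate 3.

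**Figure D1:**
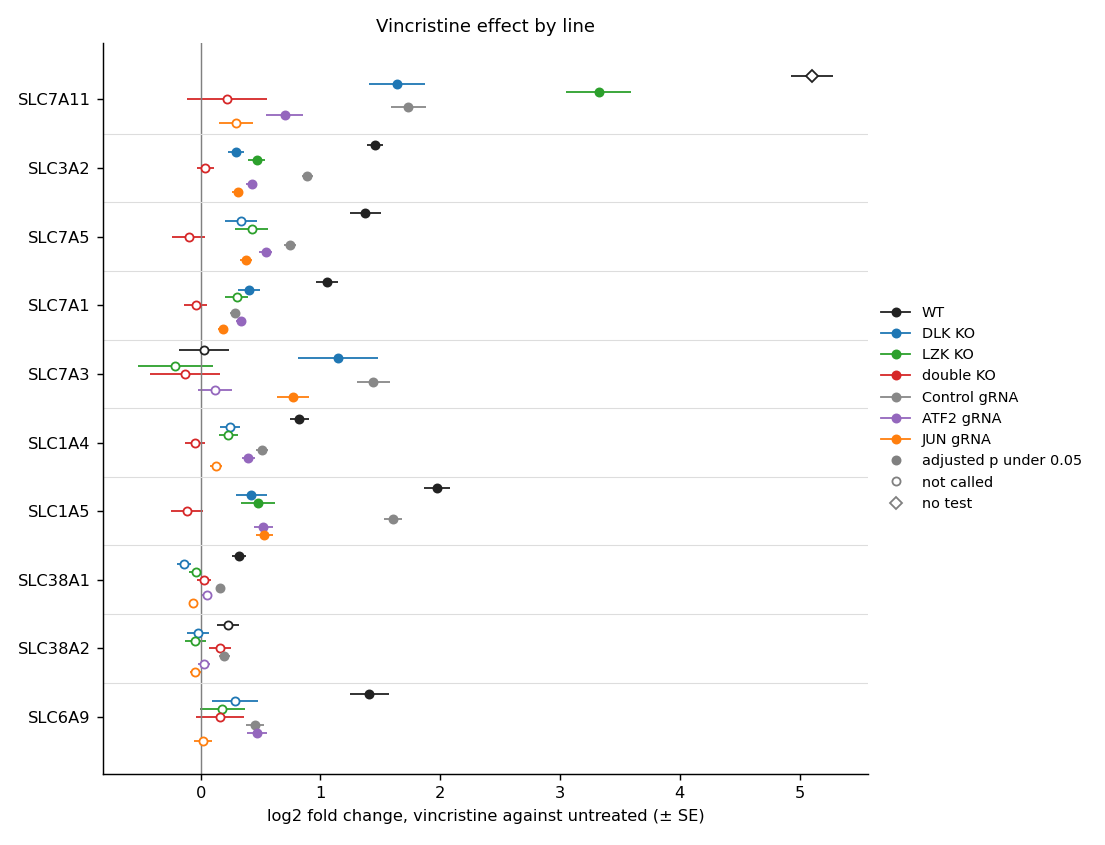
Log2 fold change (vincristine against untreated, horizontal axis, with its standard error) of the 10 transporters in the 7 lines. Filled circles passed an adjusted p of 0.05, open circles did not, and the open diamond is the value of SLC7A11 in WT that led to its choice. Every double KO value lies near 0, within 0.22 of it.

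SLC7A11 (ENSG00000151012.13, GRCh38 chr4:138164097-138242349, minus strand) was scarce in untreated neurons of experiment 1 and high after vincristine in WT. Its level in untreated WT was 5.83, 3.63, 2.25 and 3.28 CPM in the 4 libraries, from 32 to 61 counts each. After vincristine it was 126, 107, 120 and 154 CPM. The groups stand far apart, with the lowest treated library many times above the highest untreated one. This is a log2 fold change of 5.11 (SE 0.18), or 34.5-fold, and 1 of the 18235 genes had a larger change. Among called genes with an average log2 CPM of at least 1 it ranked first, ahead of ARID5A (4.99). The antisense gene SLC7A11-AS1 held 1.36% of its counts in experiment 1 and 0.987% in experiment 2.

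Where either kinase was lost, SLC7A11 still rose but ended at a far lower level. In DLK KO it went from 2.01, 1.89, 2.83 and 2.26 CPM to 6.60, 7.68, 7.26 and 6.67 CPM, with no overlap (log2 fold change 1.64, SE 0.23, adjusted p = 1.12e-05). In LZK KO it went from 0.91, 0.72, 1.11 and 1.30 CPM to 7.87, 13.5, 12.5 and 7.02 CPM (3.32, SE 0.27, adjusted p = 8.97e-11), again with no overlap. Untreated LZK KO libraries held only 6 to 12 counts of the gene, so that fold rests on a small base. In the double KO it was 1.25, 1.04, 1.26 and 1.68 CPM without and 1.77, 1.45, 1.65 and 1.22 CPM with vincristine. Those groups overlap, and the change of 0.22 (95% interval -0.47 to 0.90, adjusted p = 0.914) did not pass. Ordered by mean level, LZK KO untreated, double KO untreated and double KO vincristine were lowest and overlapped in neighbouring pairs. DLK KO and WT untreated came next and overlapped, then DLK KO and LZK KO vincristine, which also overlapped, and WT vincristine stood apart on top. A difference in response between DLK KO and LZK KO was not tested.

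In experiment 2 SLC7A11 started from a higher level and rose less. Control gRNA untreated libraries held 39.1, 25.6, 38.3, 27.7 and 27.7 CPM, and vincristine libraries 116, 102, 108, 104 and 96.3 CPM. All treated libraries lay above all untreated ones (1.73, SE 0.15, adjusted p = 3.28e-10). The tables of the 2 experiments were normalized apart, so the levels are set side by side only. With ATF2 gRNA, levels were 25.6, 35.1, 32.1, 32.3 and 29.5 CPM untreated and 44.7, 50.5, 58.3 and 47.7 CPM treated. That is a smaller rise without overlap (0.70, SE 0.15, adjusted p = 0.00486). With JUN gRNA, levels were 36.7, 38.0, 45.8, 45.3 and 31.4 CPM untreated and 38.8, 63.2, 46.3, 56.2 and 37.7 CPM treated. These groups overlap, and the change of 0.30 (95% interval 0.00 to 0.59, adjusted p = 0.19) did not pass. By mean level the order was ATF2 gRNA, Control gRNA and JUN gRNA untreated, then JUN gRNA and ATF2 gRNA vincristine, each overlapping the next, with Control gRNA vincristine apart on top at 105 CPM.

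**Figure D2:**
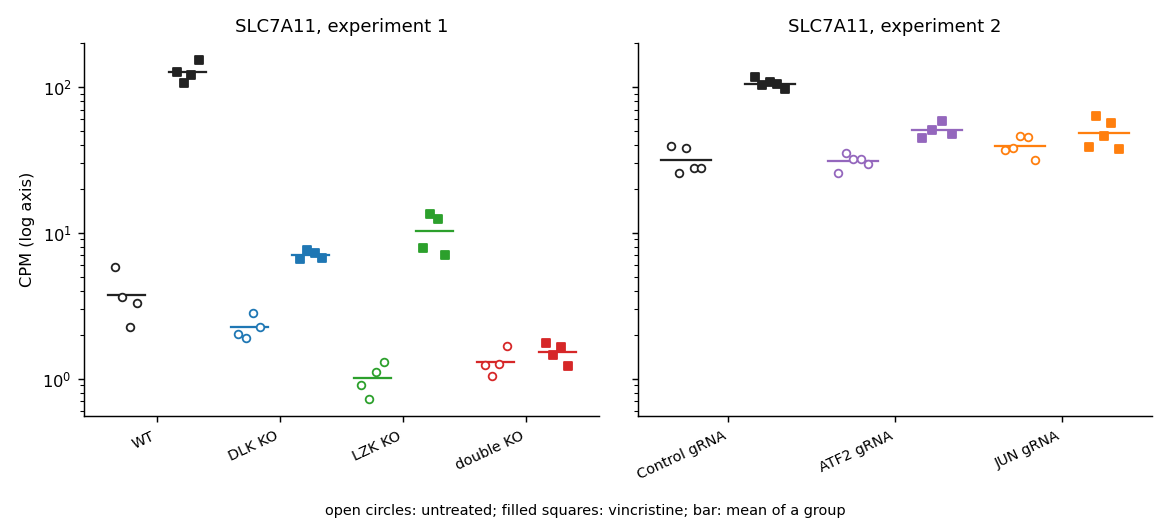
Level of SLC7A11 in each library (CPM, log axis) by line, with open circles for untreated libraries, filled squares for vincristine and a bar at the group mean. WT vincristine libraries sit between 107 and 154 CPM and Control gRNA vincristine libraries between 96.3 and 116 CPM, each above all other libraries of their experiment, while the double KO stays between 1.04 and 1.77 CPM.

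SLC3A2 (ENSG00000168003.16, chr11:62856102-62888875, plus strand), the heavy chain shared by the SLC7A11 and SLC7A5 exchangers, rose in all lines except the double KO. In WT it went from 46.1, 50.2, 52.6 and 48.2 CPM to 144, 131, 141 and 125 CPM, with no overlap (1.46, SE 0.07, adjusted p = 3.4e-19). DLK KO rose from a mean of 44.3 ± 3.62 to 54.4 ± 2.07 CPM (SD, n = 4) and LZK KO from 40.4 ± 2.43 to 56.0 ± 2.26 CPM. These rises were smaller (0.30 and 0.47) but free of overlap (adjusted p = 0.00613 and 2.23e-05), although the DLK KO call was lost with no filter on low counts. The double KO held 39.2 ± 1.07 and 40.2 ± 3.13 CPM, which overlap. In Control gRNA it went from 126, 117, 110, 113 and 109 CPM to 207, 221, 215, 219 and 198 CPM (0.89, SE 0.05, adjusted p = 5.99e-21). ATF2 gRNA (0.43, SE 0.05) and JUN gRNA (0.31, SE 0.05) rose as well, without overlap.

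SLC7A5 (ENSG00000103257.8, chr16:87830023-87869488, minus strand), the light chain of LAT1, imports large neutral amino acids such as leucine. Its WT level went from 55.2, 68.1, 63.9 and 61.2 CPM to 204, 167, 176 and 96.9 CPM (1.37, SE 0.13, adjusted p = 7.65e-10). Replicate 4 was the lowest treated library by far, although still above every untreated one, and without it the change was 1.55. The single knockouts had values of 0.33 in DLK KO and 0.43 in LZK KO that did not pass (adjusted p = 0.132 and 0.0894). Their treated libraries lay above the untreated ones all the same. Control gRNA rose from 238 ± 9.87 to 398 ± 24.0 CPM (0.75), ATF2 gRNA from 299 ± 17.3 to 436 ± 16.9 CPM (0.54) and JUN gRNA from 207 ± 16.3 to 269 ± 20.1 CPM (0.37), all without overlap.

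SLC7A1 and SLC7A3 carry arginine and lysine. SLC7A1 (ENSG00000139514.12, chr13:29509410-29595688, minus strand) rose in WT from 122, 129, 126 and 134 CPM to 300, 266, 290 and 206 CPM (1.06, SE 0.09, adjusted p = 8.01e-12). It rose by 0.40 in DLK KO (adjusted p = 0.00584), and LZK KO had a value of 0.30 that did not pass (adjusted p = 0.0638). In experiment 2 its rises were small on a high base: 0.29 in Control gRNA, from 424 ± 24.5 to 517 ± 24.4 CPM, 0.34 in ATF2 gRNA and 0.19 in JUN gRNA, where the groups overlapped.

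SLC7A3 (ENSG00000165349.11, chrX:70925582-70931125, minus strand) was not called in WT, where untreated libraries held 14.1, 13.4, 11.7 and 7.85 CPM and treated libraries 11.0, 15.0, 10.1 and 11.9 CPM. These overlap, with a change of 0.03 (95% interval -0.40 to 0.46). In Control gRNA it went from 4.96, 7.73, 5.39, 5.61 and 4.19 CPM to 14.9, 15.1, 14.5, 15.8 and 15.0 CPM. That rise (1.44, SE 0.13, adjusted p = 2.44e-12) left no overlap. JUN gRNA rose from 4.65 ± 0.88 to 7.94 ± 1.49 CPM (0.77, adjusted p = 2.61e-05), and ATF2 gRNA held 8.05 ± 0.82 and 8.77 ± 0.77 CPM (0.12, adjusted p = 0.732). In DLK KO it was 0.57, 0.40, 3.36 and 1.61 CPM untreated and 3.4, 4.18, 2.54 and 3.43 CPM treated, from as few as 4 counts. Those groups overlap, and the call (1.15, SE 0.33, adjusted p = 0.035) was lost in 7 of 14 alternatives, 6 of them the loss of untreated replicate 1, 2 or 4 or vincristine replicate 1, 2 or 4. Leaving out 1 library at a time moved the value between 0.84 and 1.99.

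SLC1A5 (ENSG00000105281.12, chr19:46774883-46788594, minus strand), the glutamine carrier ASCT2, had the largest change of the 9 others in WT and in Control gRNA. Its WT libraries went from 15.0, 15.8, 16.4 and 13.1 CPM to 68.8, 61.2, 60.1 and 48.0 CPM, a 3.93-fold rise without overlap (1.97, SE 0.11, adjusted p = 3.46e-17). In Control gRNA it went from 51.8, 52.7, 45.1, 48.1 and 44.3 CPM to 138, 162, 153, 145 and 136 CPM (1.60, SE 0.07, adjusted p = 1.89e-19). Here too the groups are fully apart. Rises were smaller with ATF2 gRNA, from 65.2 ± 4.79 to 93.7 ± 7.32 CPM (0.52), and with JUN gRNA, from 39.9 ± 4.40 to 57.7 ± 6.52 CPM (0.53). DLK KO went from 8.02 ± 0.70 to 10.7 ± 0.55 CPM and LZK KO from 6.37 ± 1.07 to 8.95 ± 0.93 CPM, both without overlap and close to the threshold (adjusted p = 0.0404 and 0.0468). The DLK KO call was lost in 9 of 14 alternatives: with no filter, with a replicate block, and with any vincristine library or untreated replicate 1, 2 or 3 left out (range 0.39 to 0.48). The LZK KO call was lost in 10 of 14: with no filter, with a replicate block, with LZK KO fitted alone, and with any vincristine library or untreated replicate 1, 2 or 4 left out (range 0.40 to 0.59). The strand setting of the counting is not given in the sources used here, so reads of SLC1A5 and of its antisense gene AC008622.2 may not be fully separate. AC008622.2, at 3.04% and 2.31% of the counts of SLC1A5, rose by 1.92 and 1.51.

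SLC1A4 (ENSG00000115902.10, chr2:64988477-65023865, plus strand), the alanine and serine carrier ASCT1, rose more modestly. WT went from 53.0 ± 1.83 to 93.8 ± 9.62 CPM (0.82, SE 0.08) and Control gRNA from 102 ± 6.96 to 145 ± 8.86 CPM (0.51, SE 0.05), both without overlap (adjusted p = 1.91e-10 and 2.3e-11). ATF2 gRNA rose from 79.2 ± 3.00 to 104 ± 5.13 CPM (0.40). JUN gRNA, DLK KO and LZK KO had values of 0.12, 0.24 and 0.23 that did not pass.

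SLC6A9 (ENSG00000196517.11, chr1:43991500-44031467, minus strand), the glycine transporter GlyT1, was a low-level gene with a clear rise in WT. It went from 7.36, 6.34, 6.74 and 4.97 CPM to 21.6, 17.2, 18.2 and 10.7 CPM (1.41, SE 0.17, adjusted p = 1.67e-08). Replicate 4 was again the lowest treated library, and without it the change was 1.57. Control gRNA rose from 24.1 ± 1.36 to 32.9 ± 2.72 CPM (0.45) and ATF2 gRNA from 20.2 ± 1.05 to 28.0 ± 3.84 CPM (0.47). JUN gRNA held 23.2 ± 2.39 and 23.6 ± 1.39 CPM (0.02, 95% interval -0.13 to 0.17, adjusted p = 0.927). SLC6A9 overlaps CCDC24 on the other strand; CCDC24 had values of -0.13 in WT and 0.21 in Control gRNA that did not pass, and fell by 0.57 in ATF2 gRNA.

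SLC38A1 and SLC38A2, sodium-coupled carriers of glutamine and small neutral amino acids, were the most abundant per length in untreated WT and had small changes. SLC38A1 (ENSG00000111371.15, chr12:46183063-46270017, minus strand) rose in WT from 438, 438, 448 and 438 CPM to 532, 498, 556 and 613 CPM (0.32, SE 0.06, adjusted p = 2.66e-05). It rose by 0.16 in Control gRNA (adjusted p = 0.000191) and had values between -0.14 and 0.05 in the other 5 lines that did not pass. SLC38A2 (ENSG00000134294.13, chr12:46358189-46372867, minus strand) held 293, 271, 282 and 261 CPM in untreated WT and 282, 298, 308 and 408 CPM after vincristine. Those groups overlap, and the change of 0.23 just missed the threshold (adjusted p = 0.0531); without the high replicate 4 it was 0.10, and without vincristine replicate 1, 2 or 3 it passed (at most 0.29). In Control gRNA it rose by 0.20 (SE 0.05, adjusted p = 0.000949), with overlap. The double KO held 320 ± 13.8 CPM untreated and 357 ± 9.52 CPM treated, without overlap. That change of 0.16 did not pass (adjusted p = 0.802) but was called when the double KO libraries were fitted alone.

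**Figure D3:**
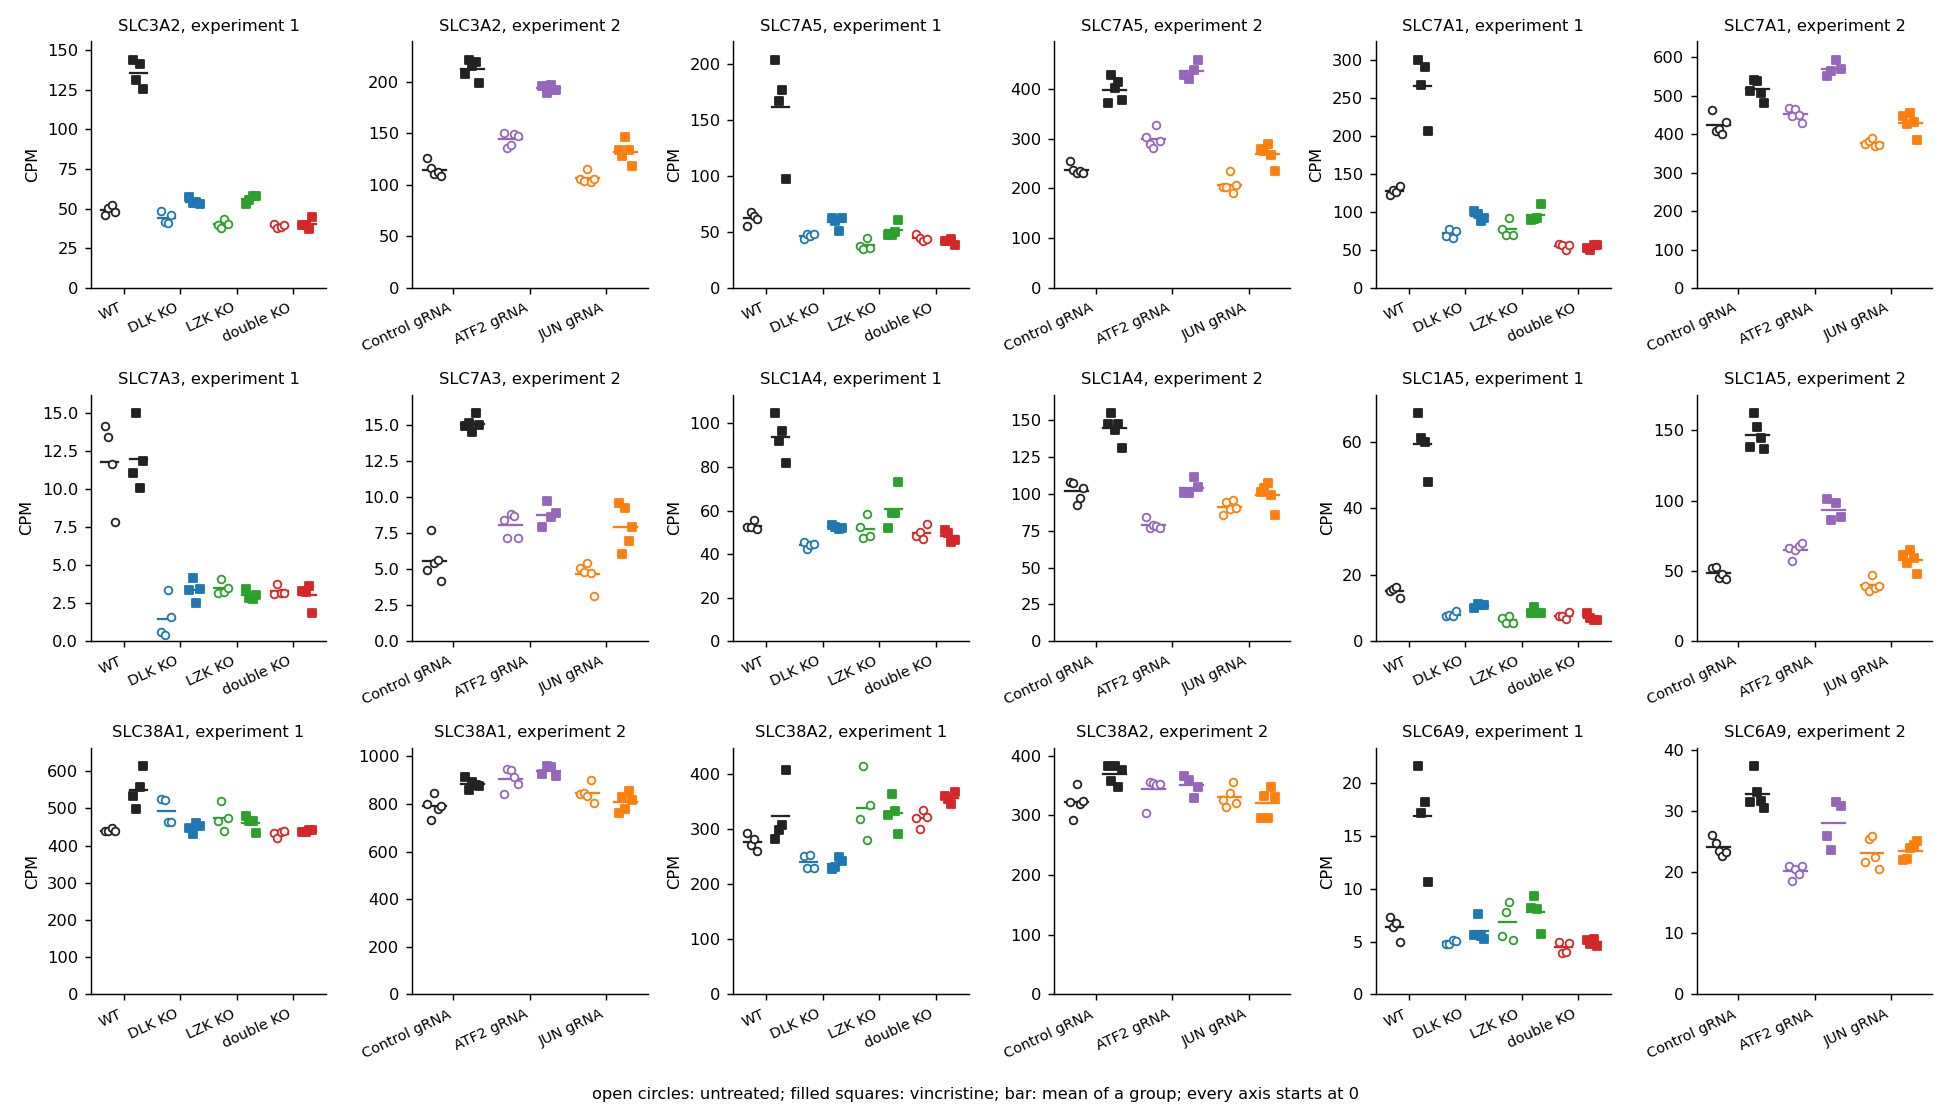
Level of the 9 other transporters in each library (CPM, linear axes from 0), a pair of panels per gene for experiments 1 and 2, with open circles for untreated libraries, filled squares for vincristine and a bar at the group mean. SLC3A2 and SLC1A5 separate clearly in WT and Control gRNA, and SLC7A3 separates in Control gRNA (14.5 to 15.8 CPM after vincristine) but not in WT.

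WT vincristine replicate 4 was at one end of its group for most of the set. It was the lowest of its group for SLC3A2, SLC7A5, SLC7A1, SLC1A4, SLC1A5 and SLC6A9 and the highest for SLC7A11, SLC38A1 and SLC38A2. JUN was 289 CPM in it, against 629, 570 and 538 CPM in the other 3 libraries. Without it the WT changes were 5.00 for SLC7A11, 1.49 for SLC3A2, 1.16 for SLC7A1, 0.88 for SLC1A4, 2.06 for SLC1A5 and 0.26 for SLC38A1.

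Per kilobase of exon, the scale on which genes can be compared, SLC7A11 was the lowest of the 10 in untreated WT at 0.389 ± 0.156 CPM per kb, and SLC38A1 the highest at 44.0 ± 0.494. Between them came SLC38A2 (41.9), SLC7A1 (16.6), SLC7A5 (13.1), SLC3A2 (9.52), SLC1A4 (7.64), SLC7A3 (5.20), SLC1A5 (4.53) and SLC6A9 (1.23). After vincristine SLC7A11 stood at 13.1 ± 2.04 CPM per kb, a level that did not differ beyond its spread from SLC1A4 at 13.5 ± 1.39. Its partner SLC3A2 reached 26.2 ± 1.69 and SLC7A5 33.9 ± 9.57. In Control gRNA SLC7A11 went from 3.28 ± 0.67 to 10.9 ± 0.768 CPM per kb, with SLC3A2 at 22.2 ± 1.33 and 41.0 ± 1.81.

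In the lines without DLK, LZK or both, the response of most transporters was smaller than in WT. The number of clones per genotype is not stated. The part of other differences between the lines, the lower untreated JUN where DLK was missing among them, was not tested. Each difference below is the change in the knockout minus the change in WT, so the 3 comparisons share the WT libraries. For DLK KO, 8 of the 9 others were called (19.4% of all genes), 7 lower and SLC7A3 higher. For LZK KO, 7 of 9 were lower (12.4%), and for the double KO 7 of 9 were lower (19.4%). SLC1A5 differed by -1.55 (SE 0.17), -1.50 (SE 0.18) and -2.09 (SE 0.17) in the 3 lines. SLC3A2 differed by -1.16, -0.99 and -1.42, each with an SE of 0.10, and SLC7A5 by -1.04, -0.95 and -1.48. SLC6A9 differed by -1.13, -1.23 and -1.25, and SLC7A1 by -0.65, -0.76 and -1.10. Smaller differences were found for SLC1A4 (-0.58, -0.59 and -0.87) and SLC38A1 (-0.46, -0.36 and -0.29), whose LZK KO call was lost when WT and LZK KO were fitted alone and whose double KO call was lost with no filter. SLC38A2 had values of -0.25, -0.27 and -0.07 that did not pass. SLC7A3 in DLK KO differed by 1.12 (SE 0.40, adjusted p = 0.0445), a call lost in 14 of 22 alternatives, 12 of them with 1 library left out (WT untreated 1, 2 or 3, WT vincristine 1, 3 or 4, DLK KO untreated 1, 2 or 4, or DLK KO vincristine 1, 2 or 4; range 0.81 to 1.96). For SLC7A11 the values were -3.47 (DLK KO), -1.79 (LZK KO) and -4.89 (double KO), given as a description.

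Between double KO and DLK KO, 0 of 10 differences passed with edgeR (1.14% of all genes), although 8 had an unadjusted p under 0.05 and DESeq2 called 1, SLC7A11. The count depended on the fit: edgeR called 3 of the 10 with no filter on low counts and 7 when the libraries of these 2 lines were fitted alone, where calls over all genes went from 207 to 3208. SLC7A11 had a difference of -1.42 that did not pass (SE 0.42, 95% interval -2.27 to -0.57, adjusted p = 0.0877). SLC7A1 differed by -0.44 (adjusted p = 0.0909) and SLC7A3 by -1.28 (adjusted p = 0.149).

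With JUN gRNA the response of all transporters but SLC7A1 was lower, and with ATF2 gRNA that of 5 of the 10. Both guides are set against the same Control gRNA libraries. Under ATF2 gRNA, JUN was at 23.7% of the untreated Control gRNA mean, and at 23.1% after vincristine. Control gRNA itself reached 268% after vincristine. Loss of ATF2 and low JUN therefore cannot be told apart in the ATF2 gRNA line. With JUN gRNA, 9 of 10 changes were smaller than in Control gRNA (15.8% of all genes were called). With ATF2 gRNA, where 20.6% of all genes were called, the 5 were SLC7A11, SLC3A2, SLC7A5, SLC7A3 and SLC1A5. SLC7A11 differed by -1.03 with ATF2 gRNA (SE 0.21, adjusted p = 0.000668) and by -1.44 with JUN gRNA (SE 0.20, adjusted p = 9.1e-06). SLC1A5 differed by -1.08 (SE 0.11) and -1.07 (SE 0.10), and SLC3A2 by -0.46 (SE 0.07) and -0.58 (SE 0.06). The 2 knockdowns lay further apart for SLC7A3, at -1.32 (SE 0.20) with ATF2 gRNA and -0.67 (SE 0.19) with JUN gRNA, and for SLC6A9, at 0.02 (SE 0.11) and -0.43 (SE 0.11). SLC1A4 was at -0.11 and -0.38. SLC7A5 with ATF2 gRNA was close to the threshold (-0.20, SE 0.07, adjusted p = 0.0396). Its call was lost in 13 of 25 alternatives, 10 of them with 1 library left out (Control gRNA untreated 3, 4 or 5, Control gRNA vincristine 2, 3 or 4, ATF2 gRNA untreated 1 or 4, or ATF2 gRNA vincristine 2 or 3; range -0.24 to -0.17).

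Tested directly against each other, ATF2 gRNA and JUN gRNA differed in 2 of 10 responses (2.83% of all genes). SLC6A9 (0.45, SE 0.11, adjusted p = 0.0121) and SLC1A4 (0.27, SE 0.08, adjusted p = 0.0319) had larger changes with ATF2 gRNA. The SLC1A4 call was lost without any of 7 libraries (ATF2 gRNA untreated 2, 4 or 5, ATF2 gRNA vincristine 4, JUN gRNA untreated 2 or 4, or JUN gRNA vincristine 5; range 0.23 to 0.31). SLC7A3 had a value of -0.65 that did not pass (adjusted p = 0.0605). For SLC7A11 the difference was 0.40 (95% interval -0.02 to 0.83, adjusted p = 0.418), and for SLC1A5 it was -0.01 (95% interval -0.23 to 0.21).

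**Figure D4:**
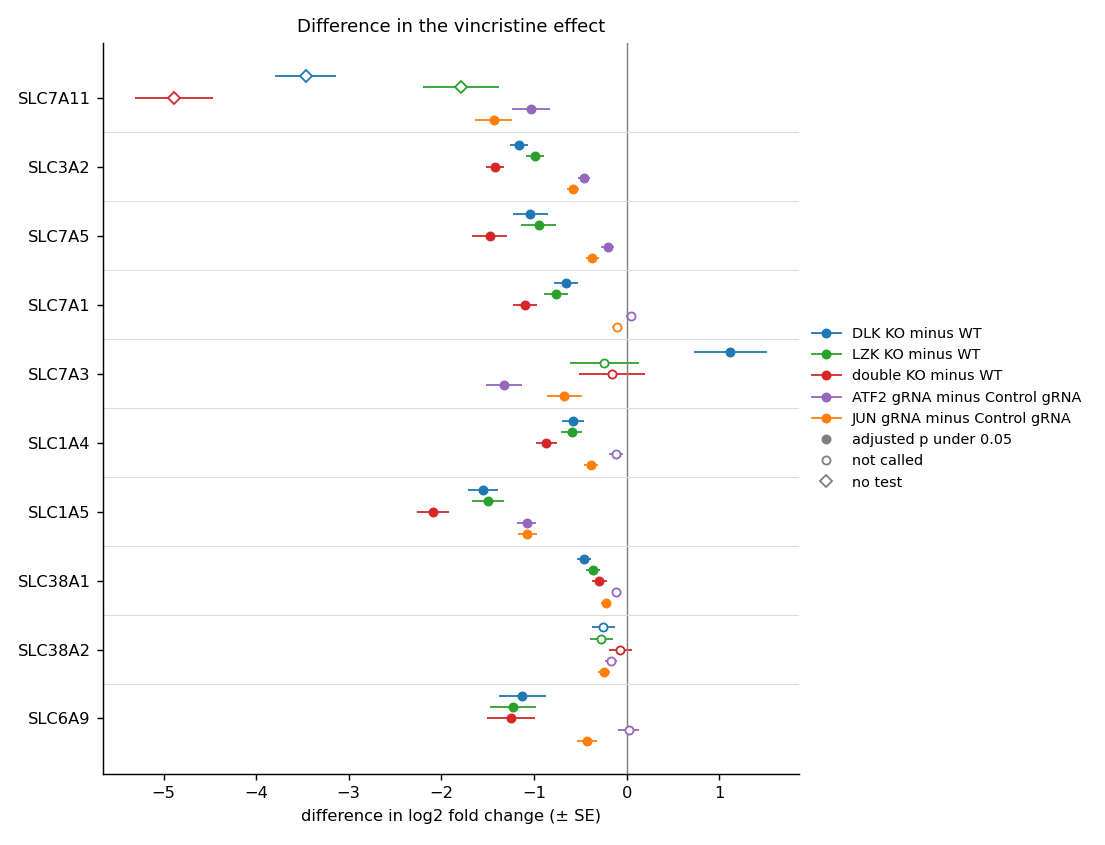
Difference in the vincristine response from WT (DLK KO, LZK KO and double KO) or from Control gRNA (ATF2 gRNA and JUN gRNA), as a difference in log2 fold change with its standard error. Filled circles passed an adjusted p of 0.05, open circles did not, and diamonds are values of SLC7A11 against WT given without a test; apart from SLC7A3 in DLK KO, every called difference lies below 0.

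Without vincristine, knockout lines already held less of most transporters than WT. Beside SLC7A11, DLK KO had 6 of 9 called (34.5% of all genes), 5 lower and SLC38A1 higher. LZK KO had 6 of 9 (33.9%), 5 lower and SLC38A2 higher, and the double KO 6 of 9, all lower (45.7%). SLC7A3 fell furthest, from 11.8 ± 2.81 CPM in WT to 1.49 ± 1.36 CPM (DLK KO), 3.51 ± 0.42 CPM (LZK KO) and 3.31 ± 0.31 CPM (double KO). Its log2 fold changes of -2.94 (SE 0.28), -1.75 (SE 0.25) and -1.82 (SE 0.25) left no overlap with WT. SLC1A5 had log2 fold changes of -0.92, -1.24 and -0.995 (SE 0.12 to 0.13), and SLC7A1 of -0.83, -0.72 and -1.21. SLC7A5 was at -0.42, -0.70 and -0.49. SLC3A2 was lower in LZK KO (-0.28) and the double KO (-0.33) but did not pass in DLK KO (-0.15, adjusted p = 0.0807). The SLC7A5 call in DLK KO was lost without WT untreated replicate 2 and the SLC38A2 call in LZK KO without LZK KO untreated replicate 2 (0.17). The SLC38A1 call in DLK KO (0.16) was lost with no filter and without WT untreated 2 or DLK KO untreated 1 or 2, and the SLC6A9 call in the double KO (-0.53) without WT untreated 1 or 3 or double KO untreated 2 or 3. Untreated SLC7A11 means were 3.75 ± 1.51 CPM for WT, 2.25 ± 0.42 for DLK KO, 1.01 ± 0.25 for LZK KO and 1.31 ± 0.27 for the double KO.

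Untreated neurons with ATF2 gRNA moved in mixed directions against Control gRNA. Of the 10, 8 were called (39.9% of all genes). SLC3A2 (0.33), SLC7A5 (0.33), SLC1A5 (0.43), SLC7A3 (0.54), SLC38A1 (0.20) and SLC7A1 (0.09) were higher, and SLC1A4 (-0.37) and SLC6A9 (-0.25) lower. The SLC7A1 call (adjusted p = 0.0486) was lost without Control gRNA untreated 2, 3, 4 or 5 or ATF2 gRNA untreated 1, 2, 3 or 4 (range 0.07 to 0.13). SLC7A11 did not differ beyond its spread (-0.04, 95% interval -0.34 to 0.26). With JUN gRNA, 4 of 10 were lower (11.2% of all genes): SLC1A5 (-0.28), SLC7A5 (-0.19), SLC7A1 (-0.17) and SLC1A4 (-0.16). The SLC1A4 call (adjusted p = 0.0364) was lost with no filter and without Control gRNA untreated 1, 2 or 5 or JUN gRNA untreated 1, 3 or 5 (range -0.19 to -0.13). SLC7A11 was at 0.32 (SE 0.14, adjusted p = 0.195).

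**Figure D5:**
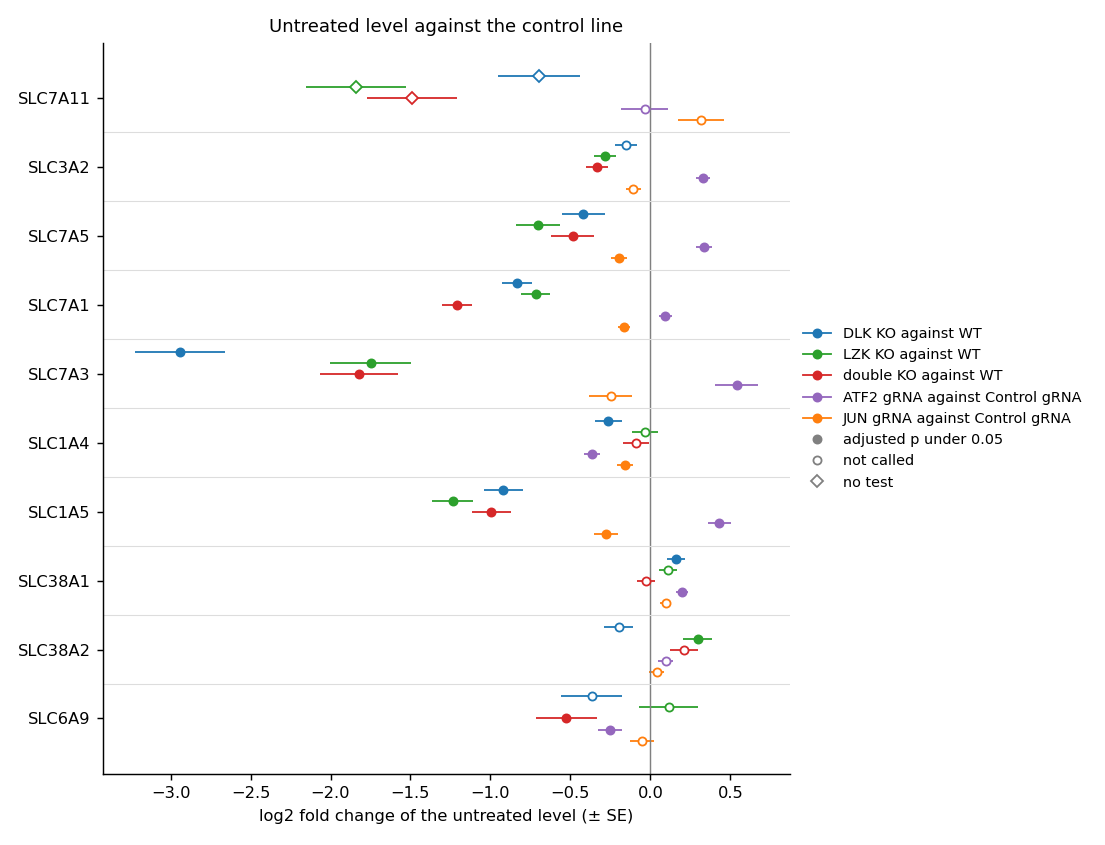
Log2 fold change of the untreated level against WT (DLK KO, LZK KO and double KO) or Control gRNA (ATF2 gRNA and JUN gRNA), with its standard error. Filled circles passed an adjusted p of 0.05, open circles did not, and diamonds are SLC7A11 values given without a test; the lowest value is SLC7A3 in DLK KO at -2.94.

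Other amino acid transporters moved in both directions. Of 40 listed, 23 were tested in experiment 1 and 1 rose and 5 fell in WT (30.2% of all genes called), with a median of -0.07. In Control gRNA 4 of 25 rose and 6 fell (35.3% of all genes called), with a median of 0.11. These shares lie near those of all genes, and the difference from the 10 transporters was not tested. SLC1A1, a neuronal glutamate carrier, fell by 0.56 in WT and by 0.77 in Control gRNA, and SLC43A2, a carrier of large neutral amino acids, fell by 0.77 and 0.58. SLC43A3, also on the list but known as a carrier of purine nucleobases, rose in Control gRNA (0.54). It had a value of 0.29 in WT that did not pass. ATF2 gRNA had 1 higher and 2 lower (6.1% of all genes called), and JUN gRNA 4 higher and 4 lower (15.9%).

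Genes of cystine and glutathione metabolism moved in both directions. Of 15 listed, 2 rose and 6 fell in WT (median -0.15, with 30.2% of all genes called), and 3 rose and 8 fell in Control gRNA (median -0.19, with 35.3% of all genes called). CTH, which makes cysteine by transsulfuration, rose by 1.02 in WT and 1.03 in Control gRNA. GCLM, the modifier subunit of glutamate-cysteine ligase, rose in Control gRNA (0.62) and was at 0.01 in WT. ACSL4, which primes membrane lipids for peroxidation, fell by 0.48 in WT and by 0.59 in Control gRNA. Among 11 NRF2 target genes tested in WT, 5 fell, against 30.2% of all genes called, with a median over the 11 of -0.27. In Control gRNA 4 rose, among them HMOX1 (0.70), ME1 (0.70) and GCLM, and 5 of 12 fell (median -0.09), against 35.3% of all genes called. The HMOX1 call (adjusted p = 0.0398) was lost with no filter and without Control gRNA untreated 1, 2, 3 or 5 or Control gRNA vincristine 1, 2 or 3 (range 0.64 to 0.83).

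Integrated stress response genes rose with the transporters. In WT 14 of 14 tested rose (median 2.41, 30.2% of all genes called), 8 rose with loss of DLK (6.53%) and 11 with loss of LZK (3.88%), and the double KO had a median of -0.00142. In Control gRNA 12 rose and 1 fell (35.3% of all genes called), with ATF2 gRNA 13 rose (6.1%), and with JUN gRNA 9 rose and 1 fell (15.9%). ATF3, a stress-induced transcription factor, rose by 3.98 in WT, 3.48 in Control gRNA, 1.42 with JUN gRNA and 0.48 with ATF2 gRNA. DDIT3, which encodes the pro-apoptotic factor CHOP, rose by 3.14, 2.89, 1.59 and 0.55 in the same lines, and CEBPB by 3.00, 2.51, 1.03 and 0.74. The gene that fell in Control gRNA was ATF4 itself (-0.10, SE 0.04, adjusted p = 0.029), named after its value was seen; its transcript rose by 1.09 (SE 0.09) in WT. Among 7 genes known as regulators of SLC7A11, 3 rose in WT (30.2% of all genes called) and 3 rose and 2 fell in Control gRNA (35.3%). NFE2L2, which encodes NRF2, rose by 0.94 in WT, 0.38 with Control gRNA, 0.21 with ATF2 gRNA and 0.33 with JUN gRNA. BACH1, a repressor of NRF2 targets, rose in Control gRNA (0.45) and was at 0.09 in WT.

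The genes whose levels ran most like SLC7A11 were found by Pearson's r of log2 CPM over the 32 libraries of experiment 1 and the 29 of experiment 2, ranked by the lower r among 12337 genes. They were DDIT4 (0.952 and 0.910), ATF3 (0.922 and 0.906), STC2 (0.946 and 0.900), JDP2 (0.921 and 0.897) and TARS (0.902 and 0.891). These r describe libraries that share treatment and line. DDIT4, which restrains mTORC1, rose by 1.70 in WT and 1.27 in Control gRNA, and was at 0.05 in the double KO. STC2, a secreted glycoprotein, rose by 4.08 and 1.54, and JDP2, a partner of JUN, by 2.56 and 1.07. TARS, the cytosolic threonyl-tRNA synthetase, rose by 1.19 and 0.32. Among the 9 other transporters SLC1A4 came closest (0.872 and 0.840), then SLC6A9 (0.839 and 0.794) and SLC1A5 (0.902 and 0.781). SLC38A2 was least like it (-0.0152 and 0.597).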

How the data were processed

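Poly(A) RNA from 61 samples in 14 groups had been sequenced as stranded TruSeq libraries, per the labels' protocols. The authors deposited raw counts per gene, 1 table per experiment, with coordinates on GRCh38 per the file headers. Per the submitters' processing notes, cutadapt 3.4, STAR, featureCounts and Subread 2.0.1 were used; the strand setting and the handling of duplicates are not given in the sources used here. Of 58440 identifiers, 58320 matched a GENCODE 29 symbol. The counts were taken as deposited, with 0 unmapped columns.

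Each experiment was fitted with edgeR 4.0.16 (R 4.3.3): genes kept by filterByExpr on groups, TMM scaling, 1 mean per group, robust quasi-likelihood fits, Benjamini-Hochberg adjustment over all genes and calls at an adjusted p under 0.05. Standard errors were obtained from each log2 fold change and its F statistic (change over root F). The 19 comparisons were 7 vincristine effects, 7 differences between effects and 5 untreated levels. Alternatives were RLE scaling, no filter, a mean of 1 CPM, a replicate block, only the groups compared, DESeq2 1.42.0 and each library left out. The scripts were tested on simulated data. None of 104 replicate pairs was a copy (lowest chi-square per degree of freedom 1.58).

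The members and gene lists were chosen with earlier results of these data known, and lists were matched by symbol. Named were the 10 members, the 5 genes most like SLC7A11 and, per list, at most 3 genes called in WT or Control gRNA with the largest change in Control gRNA. Levels per kb divide CPM by exonic length from the deposited tables.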

Additional observations from a re-analysis of the deposited data

Results flagged for a closer look

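The 10 genes in 14 groups gave 140 sets of 4 or 5 values, and the same libraries recur across genes. Of these sets, 9 had a library apart from the others by Dixon's criterion, which chance meets in about 1 in 20 independent sets. SLC1A5 gave 3 of them: 47.4 CPM in JUN gRNA untreated replicate 3 (nearest library 39.2), 9.90 CPM in DLK KO vincristine replicate 1 (nearest 10.9) and 10.3 CPM in LZK KO vincristine replicate 2 (nearest 8.59). JUN gRNA untreated replicate 3 was also high for SLC3A2, at 115 CPM against 106. SLC7A1 was 111 CPM in LZK KO vincristine replicate 4, against 91.3. The others were SLC7A3 at 3.77 CPM in double KO untreated replicate 2, SLC38A1 at 448 CPM in WT untreated replicate 3, SLC38A2 at 304 CPM in ATF2 gRNA untreated replicate 1 and SLC6A9 at 7.59 CPM in DLK KO vincristine replicate 2.

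Differences in response that passed their own test numbered 38. In DLK KO minus WT they were -1.16 for SLC3A2, -1.04 for SLC7A5, -0.65 for SLC7A1, 1.12 for SLC7A3, -0.58 for SLC1A4, -1.55 for SLC1A5, -0.46 for SLC38A1 and -1.13 for SLC6A9. In LZK KO minus WT they were -0.99 for SLC3A2, -0.95 for SLC7A5, -0.76 for SLC7A1, -0.59 for SLC1A4, -1.50 for SLC1A5, -0.36 for SLC38A1 and -1.23 for SLC6A9. In double KO minus WT they were -1.42 for SLC3A2, -1.48 for SLC7A5, -1.10 for SLC7A1, -0.87 for SLC1A4, -2.09 for SLC1A5, -0.29 for SLC38A1 and -1.25 for SLC6A9.

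Against Control gRNA, ATF2 gRNA differed by -1.03 for SLC7A11, -0.46 for SLC3A2, -0.20 for SLC7A5, -1.32 for SLC7A3 and -1.08 for SLC1A5. JUN gRNA differed by -1.44 for SLC7A11, -0.58 for SLC3A2, -0.37 for SLC7A5, -0.67 for SLC7A3, -0.38 for SLC1A4, -1.07 for SLC1A5, -0.23 for SLC38A1, -0.24 for SLC38A2 and -0.43 for SLC6A9. ATF2 gRNA minus JUN gRNA was 0.27 for SLC1A4 and 0.45 for SLC6A9.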

How the results depend on the processing

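The members' counts for the double KO against DLK KO moved most: from 0 to 3 with no filter, 7 with only the groups compared, 1 with DESeq2, and 0 to 1 with 1 library left out. SLC7A11 passed there at -1.42 (no filter), -1.43 (only the groups compared) and -1.42 (DESeq2). With only the groups compared, 1 member, SLC38A2, passed in the double KO. Leaving out 1 library gave 3 to 5 members in DLK KO, 2 to 6 in LZK KO, 1 to 2 for ATF2 gRNA minus JUN gRNA, and -0.103 to 0.0477 for untreated SLC7A11 with ATF2 gRNA. Values near 0 changed sign. GCLM in WT was -3.4e-05 (RLE), -0.00422 (no filter), -0.00441 (only the groups compared) and -0.00263 (DESeq2), and SLC1A5 for ATF2 gRNA minus JUN gRNA was 0.00704 (RLE), 0.0102 (no filter), 0.0077 (1 CPM), 0.0106 (only the groups compared) and 0.00682 (DESeq2).

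With 1 library left out the ranges that crossed 0 were -0.0719 to 0.127 for GCLM, -0.0178 to 0.155 for BACH1 and -0.121 to 0.125 for SLC7A3 in WT, -0.0779 to 0.0466 for SLC1A5 and ATF2 gRNA minus JUN gRNA, -0.0644 to 0.00779 for SLC38A1 and -0.115 to 0.0699 for SLC38A2 in LZK KO, -0.0112 to 0.0658 for SLC38A2 in ATF2 gRNA, -0.0318 to 0.0623 for SLC6A9 in JUN gRNA, -0.0518 to 0.0845 for SLC6A9 and ATF2 gRNA minus Control gRNA, and -0.0765 to 0.215 for SLC6A9 untreated in LZK KO. In the double KO they were -0.0773 to 0.00375 for SLC1A4, -0.0148 to 0.0843 for SLC3A2 and -0.223 to 0.0356 for SLC7A3; against WT -0.134 to 0.0633 for SLC38A2 and -0.256 to 0.00942 for SLC7A3; against DLK KO -0.177 to 0.0274 for SLC6A9.

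Over all genes, with only the groups compared, calls went from 5498 to 3529 (WT), 1190 to 3207 (DLK KO), 707 to 271 (LZK KO), 12 to 1028 (double KO), 2262 to 1082 (LZK KO minus WT), 207 to 3208 (double KO minus DLK KO; 536 with no filter, 436 with DESeq2) and 1267 to 768 (ATF2 gRNA). With 1 library left out they fell as low as 598 (DLK KO), 452 (LZK KO) and 114 (double KO minus DLK KO). The cause was not tested. Replicate numbers did not pair the libraries: of 30 same-numbered pairs 1 had a correlation over 0.1, and 9 matched best within their own number. With a replicate block SLC7A11 changed by 5.10 in WT and 1.73 in Control gRNA, and 4 calls of the transporters were lost: SLC1A5 in DLK KO and LZK KO, SLC7A3 for DLK KO minus WT and SLC7A5 for ATF2 gRNA minus Control gRNA. Depth limits SLC7A11, SLC7A3, SLC1A5 and SLC6A9 in experiment 1, where single libraries hold under 100 counts of each.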
